A study of Mus musculus with 42 samples.

Results

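Hippocampus of vehicle-treated mice labelled as PDE10A knockout (KO) was compared with hippocampus of vehicle-treated wild-type (WT) mice, gene by gene. The arrays were chosen by title, which names genotype, region and treatment, and gave 5 KO and 6 WT arrays, 11 of the 42 arrays of the series. The study set WT and KO mice of the C57BL6 strain against each other in hippocampus and striatum, after vehicle or after an inhibitor of PDE10. All groups share the strain, the snap-freezing of microdissected tissue and the array type. Both vehicle groups used here received vehicle and no inhibitor, and carry no other allele in the labels. The WT arrays are numbered 1 to 6 and the KO arrays 25, 26, 28, 29 and 30. The exons removed in the knockout, the cells in which it was made, any backcross, the age and sex of the mice, the vehicle, and the compound, its dose and its timing are all missing from the labels and other sources read here. No label states that each array is a different mouse, so the p-values reflect no more than the spread between these samples, and that spread may be technical. Each array carried total RNA as labelled cRNA, read as a log2 signal per probe set after RMA. RMA corrects for background, gives all arrays the same signal distribution and combines the probes of each set.

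PDE10A is a phosphodiesterase that breaks the second messengers cAMP and cGMP. It is abundant in the projection neurons of the striatum and much scarcer in the hippocampus. cAMP acts largely through protein kinase A, which phosphorylates the transcription factor CREB, and CREB in turn drives early response genes such as Fos, Npas4 and Sik1.

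Genes known to differ between the regions did so on these arrays. In WT vehicle arrays Slc17a7, the vesicular glutamate transporter of cortical and hippocampal principal neurons, averaged 11.07 in hippocampus and 8.64 in striatum. Tac1, which codes for the substance P precursor and marks striatal projection neurons, averaged 8.20 in hippocampus and 12.74 in striatum. Array medians lay between 6.05 and 6.09. The Gapdh difference, which is larger where RNA is shortened because it takes the 5' control signal from the 3' one, ran from 0.04 to 0.35 in the WT and from 0.08 to 0.28 in the KO arrays. The most alike pair of arrays, WT 3 and WT 6, still differed with an SD of 0.19 over probe sets, which is no identical copy.

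Several arrays stood apart, and results that rest on them are given with and without them. Genes of tissue next to the hippocampus varied from array to array in both groups. Gabra6, a GABA receptor subunit of cerebellar granule cells, was at 9.95 on WT 1 and 8.49 on WT 3, and between 3.44 and 4.83 on the other 9 arrays. Pcp2, of Purkinje cells, was at 10.95 and 8.21 on the same WT arrays and at 8.67 on KO 30, against at most 6.19 elsewhere. Gpr151, of the habenula, was at 7.64 on KO 26 and 6.53 on WT 6, and at most 4.60 elsewhere. Ttr, the transthyretin gene of the choroid plexus, ranged from 9.98 on KO 29 to 14.69 on KO 28. The mean over 11 choroid plexus markers ran from 5.67 to 8.94 in the WT and from 5.39 to 9.24 in the KO arrays, so each group held arrays with much and with little of this signal. These genes were picked after their values were seen. Chromosome 17, which holds Pde10a, set KO 25 and KO 26 apart in another way, described below. In earlier results of these data those arrays, and WT inhibitor 12 and 14, were doubted because their chromosome 17 genes lay on the side of the other genotype. Leaving them out therefore favours chromosome 17 genes.

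Pde10a, the targeted gene, was not lower in the KO arrays. On its brightest probe set the WT arrays read 8.99, 9.02, 9.01, 8.94, 9.04 and 9.02. KO 25 read 9.04 and KO 26 read 9.08, within or just above the WT range, while KO 28, 29 and 30 read 9.52, 10.16 and 9.54. The first pair of KO arrays thus lay with the WT arrays and the other KO arrays lay above all of them. The KO mean was 9.47 ± 0.45 (SD, n = 5) and the WT arrays had an SD of 0.04 (n = 6), with a difference between the means of 0.47 ± 0.20 (SE) on the log2 scale with an adjusted p of 0.71 in limma. Without KO 25 and 26 the difference was 0.74. Of the 4 other probe sets, the second brightest read 7.59 and 7.86 on KO 25 and 26 against 8.72 to 9.26 on KO 28 to 30, and 7.87 to 8.39 on the WT arrays. The third brightest split the KO arrays in the same way, at 7.86 and 7.90 against 8.48 to 8.83, with the WT arrays between 7.68 and 8.14. The dimmest set read 5.10 and 5.30 on KO 25 and 26 and 5.73, 6.65 and 6.14 on the others, so that KO 28 lay inside the WT range of 4.95 to 6.08. On the fourth brightest the KO arrays read 5.90 to 6.38, inside the WT range of 5.97 to 6.38 but for the lowest. Where the probe sets lie relative to the removed part of the gene is not known here, so Pde10a gives no check of the knockout, and KO stands for the label throughout. Among the inhibitor-treated hippocampus arrays the KO arrays read 9.51 to 9.81 on the brightest set. WT inhibitor 12 and 14 read 9.88 and 9.84, above all of those, and the other WT inhibitor arrays 8.54 to 9.29. In WT vehicle striatum the brightest set averaged 12.32. KO vehicle 29, at 10.16, also had the highest mean of 16 striatal projection neuron markers (7.81, against 7.38 to 7.61 on the WT vehicle arrays). That mean was 7.39 and 7.38 on KO vehicle 28 and 30, and any part of striatal tissue in the Pde10a signal was not tested.

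**Figure D1:**
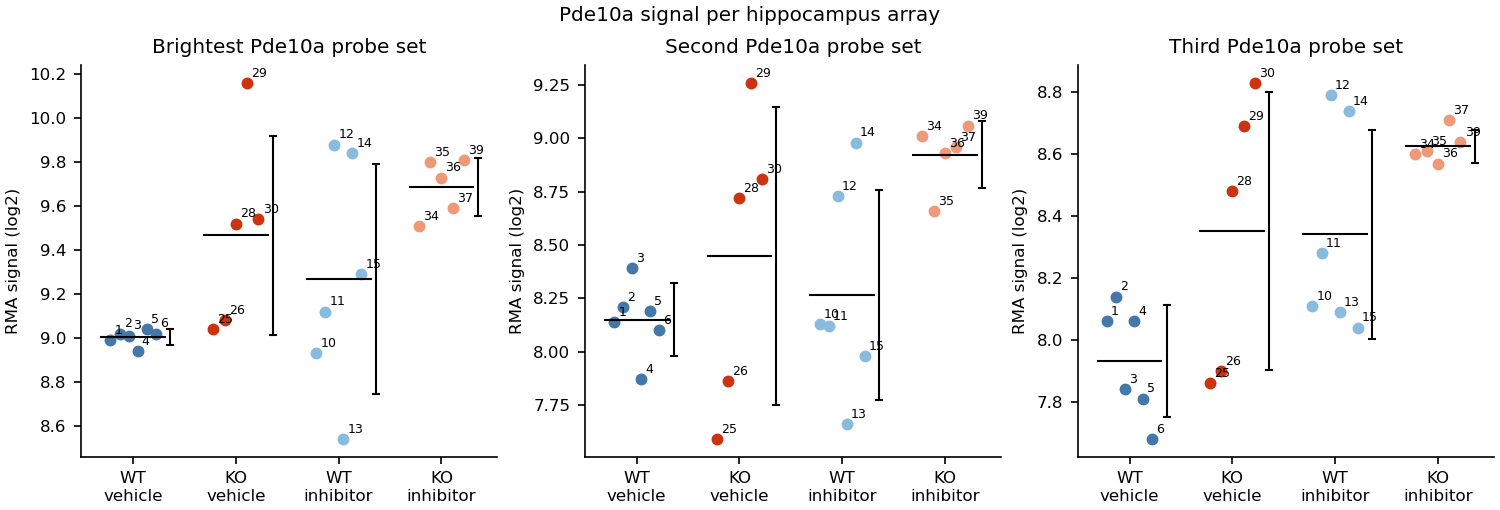
Log2 RMA signal of 3 Pde10a probe sets on each hippocampus array, in the 4 groups by genotype and treatment, with array numbers beside the points, the group mean as a line and the SD as a bar. On each of the 3 sets KO vehicle 25 and 26 sit within, near or below the WT vehicle arrays, and KO vehicle 28, 29 and 30 sit above them (9.52 to 10.16 on the brightest set).

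No gene passed the test between the vehicle groups. Of 18193 genes, 0 had an adjusted p under 0.05 in limma (0% called), and the smallest adjusted p was 0.371. At an unadjusted p under 0.05 there were 1205 genes (6.62% of those tested), 646 higher (3.55%) and 559 lower (3.07%) in KO. The KO and WT arrays did not overlap for 107 genes (0.588%), with all KO above all WT for 57 and all KO below for 50. The median difference over all genes was 0.00, and 5% and 95% of genes lay below -0.14 and 0.15. Only 32 genes differed by more than 0.5 between the group means, and 2 by more than 1. The count was 0 in 22 of 23 alternatives, and 15 where KO 25 and 26 and WT inhibitor 12 and 14 were all left out. Leaving out KO 25 and 26 alone gave 0, with 751 genes at an unadjusted p under 0.05 (4.13%).

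The genes with the smallest p among those higher in KO differed modestly. Tmem181a, which codes for a membrane protein and lies 13 tested genes before Pde10a on chromosome 17, read 10.08 to 10.50 (median 10.38) on the WT arrays. On KO 25, 26, 28, 29 and 30 it read 10.80, 10.59, 11.14, 11.27 and 10.89, so that all KO arrays lay above all WT arrays. The difference was 0.59 ± 0.12 (SE), or 1.50-fold, with an adjusted p of 0.371 in limma. Ccr6, the receptor of the chemokine CCL20, had the largest difference of these genes, 0.91 ± 0.24 (adjusted p = 0.565), but the groups overlapped: the WT arrays read 4.77 to 5.74 (median 5.26) and the KO arrays 5.49, 5.80, 6.53, 6.41 and 6.68. KO 25 was inside the WT range and KO 28, 29 and 30 were well above it. Sik1, a kinase whose transcription CREB drives, read 5.32 to 5.60 (median 5.40) on the WT arrays and 5.50, 5.91, 5.82, 5.67 and 5.75 on the KO arrays, a difference of 0.31 ± 0.07 (adjusted p = 0.524). Only KO 25 lay inside the WT range for Sik1. Its dimmer second probe set differed by -0.02.

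The other higher genes with the smallest p lay away from chromosome 17. Ripor3 read 6.07 to 6.27 (median 6.13) on the WT arrays and 6.50, 6.69, 6.53, 6.31 and 6.27 on the KO arrays (0.31 ± 0.06, adjusted p = 0.371). Insrr, an insulin receptor relative that senses alkaline pH, read 4.52 to 4.73 (median 4.66) and then 4.83, 5.05, 4.92, 4.85 and 4.80 (0.24 ± 0.06). Klhl9, an adaptor of a cullin ubiquitin ligase, read 9.91 to 10.12 (median 10.03) and then 10.24, 10.19, 10.17, 10.28 and 10.18 (0.19 ± 0.05). For Insrr and Klhl9 every KO array was above every WT array. Slc5a3, the sodium and myo-inositol cotransporter, differed by 0.30 ± 0.08, and Tm4sf5, Tgm4, Cmtm1, Zfp786 and Lypd3 by 0.26 to 0.32. Tm4sf5, Tgm4, Cmtm1, Zfp786 and Lypd3 had WT means of 3.87 to 5.00, low in the range of signals.

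Among the 12 genes lower in KO with the smallest p, Lix1 came first. It lies 46 tested genes after Pde10a. The WT arrays read 7.79 to 8.11 (median 7.92) and the KO arrays 7.45, 7.55, 7.71, 7.38 and 7.59, with no overlap and with KO 25 and 26 among the other KO arrays. The difference was -0.39 ± 0.07 (SE, adjusted p = 0.371 in limma), and -0.36 without KO 25 and 26. Tsc2, which codes for tuberin, the brake on the growth kinase complex mTORC1, had a WT median of 9.12 and read 8.95, 8.94, 8.78, 8.87 and 8.85 on the KO arrays (-0.22 ± 0.05, adjusted p = 0.524). All KO arrays were below all WT arrays here too. Kctd5, an adaptor of a cullin ubiquitin ligase, was lower by 0.25 on the log2 scale (-0.25 ± 0.06), but its other probe set averaged 7.59 in both groups.

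Away from chromosome 17, Sc5d, a desaturase late in cholesterol synthesis, read 8.71 to 8.94 (median 8.78) on the WT arrays and 8.53, 8.46, 8.69, 8.52 and 8.61 on the KO arrays (-0.24 ± 0.06, adjusted p = 0.524). Stag1, a cohesin subunit, read 8.30 to 8.48 (median 8.39) and then 8.04, 8.14, 8.01, 8.24 and 8.22 (-0.27 ± 0.06). For Sc5d and Stag1 all KO arrays lay below all WT arrays. The microglial ADP receptor genes P2ry12 and P2ry13 were both in this group. P2ry12 read 8.24 to 8.77 (median 8.51) on the WT arrays and 7.93, 7.91, 8.17, 8.27 and 8.21 on the KO arrays (-0.39 ± 0.10, adjusted p = 0.56), with KO 29 reaching into the WT range. P2ry13 read 6.95 to 7.26 (median 7.11) and then 6.81, 6.72, 6.82, 6.85 and 6.99 (-0.26 ± 0.06), with KO 30 reaching into the WT range. Gpr37l1, an astrocyte receptor, Clip3, Gpr137c, Rasef and Fam149b differed by -0.18 to -0.26.

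**Figure D2:**
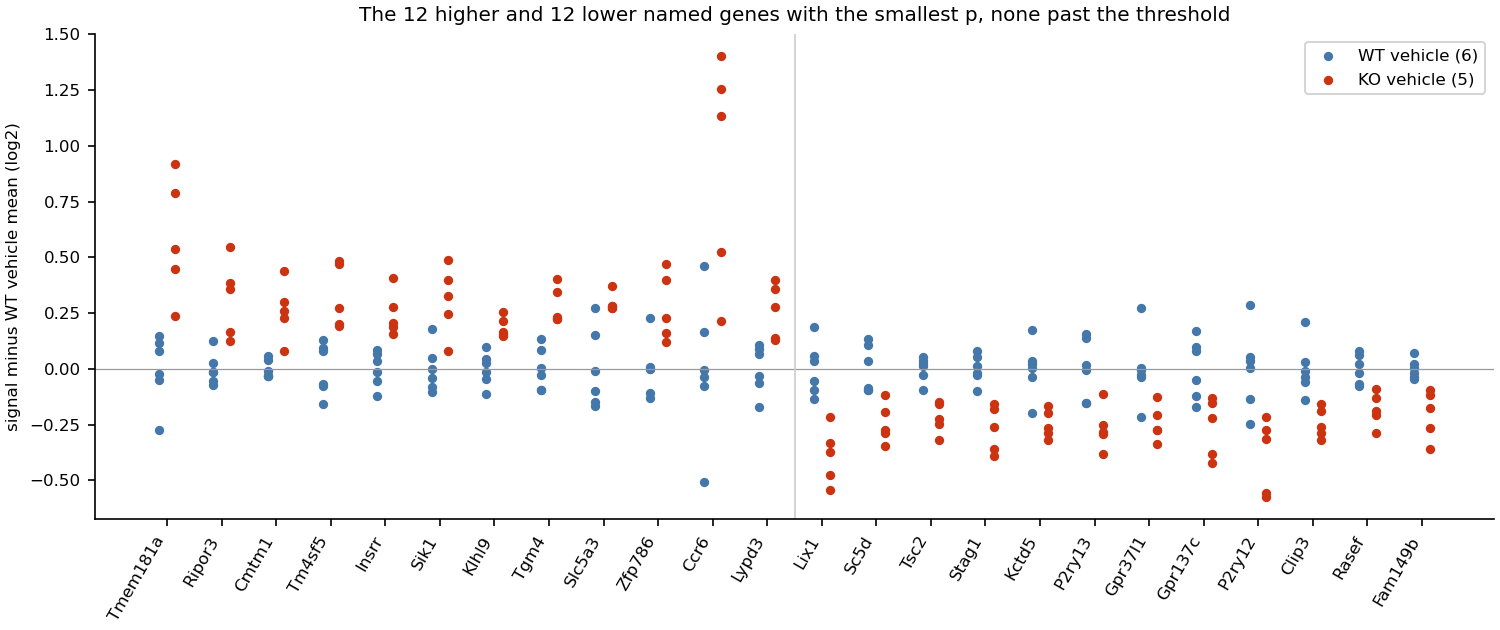
Signal of the 12 higher and 12 lower named genes with the smallest p on each vehicle hippocampus array, as log2 signal minus the mean of the 6 WT arrays (blue) for WT and KO (red) arrays. Every difference between the group means is under 1 on the log2 scale, Ccr6 has the widest KO spread, and the groups do not overlap for 8 of the higher and 7 of the lower genes, which the small p selected.

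The arrays treated with the inhibitor hold other WT and KO hippocampus samples, and none of them belongs to either vehicle group. The 4 hippocampus groups shared a fit, however, so the inhibitor arrays entered the spread behind the p-values that picked these genes. The counts at an unadjusted p under 0.05 are therefore no independent follow-up. Of the 12 higher genes, 6 had a KO difference of the same sign there, 2 of them with an unadjusted p under 0.05, and 3 had the opposite sign with an unadjusted p under 0.05. Of the 12 lower genes, 9 had the same sign, 1 with an unadjusted p under 0.05. Over all genes the sign was the same for 45.4%, and 7.21% had the same sign with an unadjusted p under 0.05. Tmem181a was again higher in KO, by 0.49 ± 0.12, and Ccr6 by 0.59 ± 0.24. Insrr, at -0.14 ± 0.06, and Cmtm1, at -0.14 ± 0.06, had the opposite sign there. Lix1 was at -0.11 ± 0.07. In that comparison 1 of the 18193 genes passed (0.0055%): Gtf2a1l, a germ cell relative of a general transcription factor, far along chromosome 17, at -0.33 ± 0.05 (adjusted p = 0.0461). Its vehicle difference was 0.01 ± 0.05. The count was 0 without any 1 of KO inhibitor 35, 36 and 37 and WT inhibitor 10, 11, 12, 14 and 15, 2 without KO inhibitor 39 and 4 without WT inhibitor 13.

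A larger share of the chromosome 17 genes than of the other genes had a small p. At an unadjusted p under 0.001 there were 28 genes in all (0.154%), of which 6 lay among the 834 tested genes of chromosome 17 (0.719%) and 22 among the 17359 other genes (0.127%). Tmem181a, Ccr6, Sik1, Lix1, Tsc2 and Kctd5 are those 6. Without KO 25 and 26 the numbers were 21 on chromosome 17 (2.52%) and 10 elsewhere (0.0576%), out of 31 in all (0.17%). The groups did not overlap for 8 chromosome 17 genes (0.959%) and for 0.57% of the other genes. No test of these shares was made, since KO 25 and 26 were doubted from genes of this chromosome.

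Near Pde10a itself the named neighbours differed to varying degrees. Sft2d1, Prr18 and Cahm had an unadjusted p under 0.05, as 6.62% of all genes did. Mpc1, a subunit of the mitochondrial pyruvate carrier, differed by -0.10 ± 0.06, Sft2d1 by -0.16 ± 0.05 and Qk, an RNA-binding protein of myelinating cells, by 0.14 ± 0.07. T2 and Pabpc6 were at -0.03 ± 0.09 and 0.04 ± 0.10, and Cahm at 0.20 ± 0.08. Prr18 read 8.78 to 9.50 (median 9.26) on the WT arrays, 9.09 on KO 25 and 8.64 to 8.72 on the other KO arrays (-0.46 ± 0.15, adjusted p = 0.612 in limma). KO 25 thus lay inside the WT range, and KO 26 with the other KO arrays below it.

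**Figure D3:**
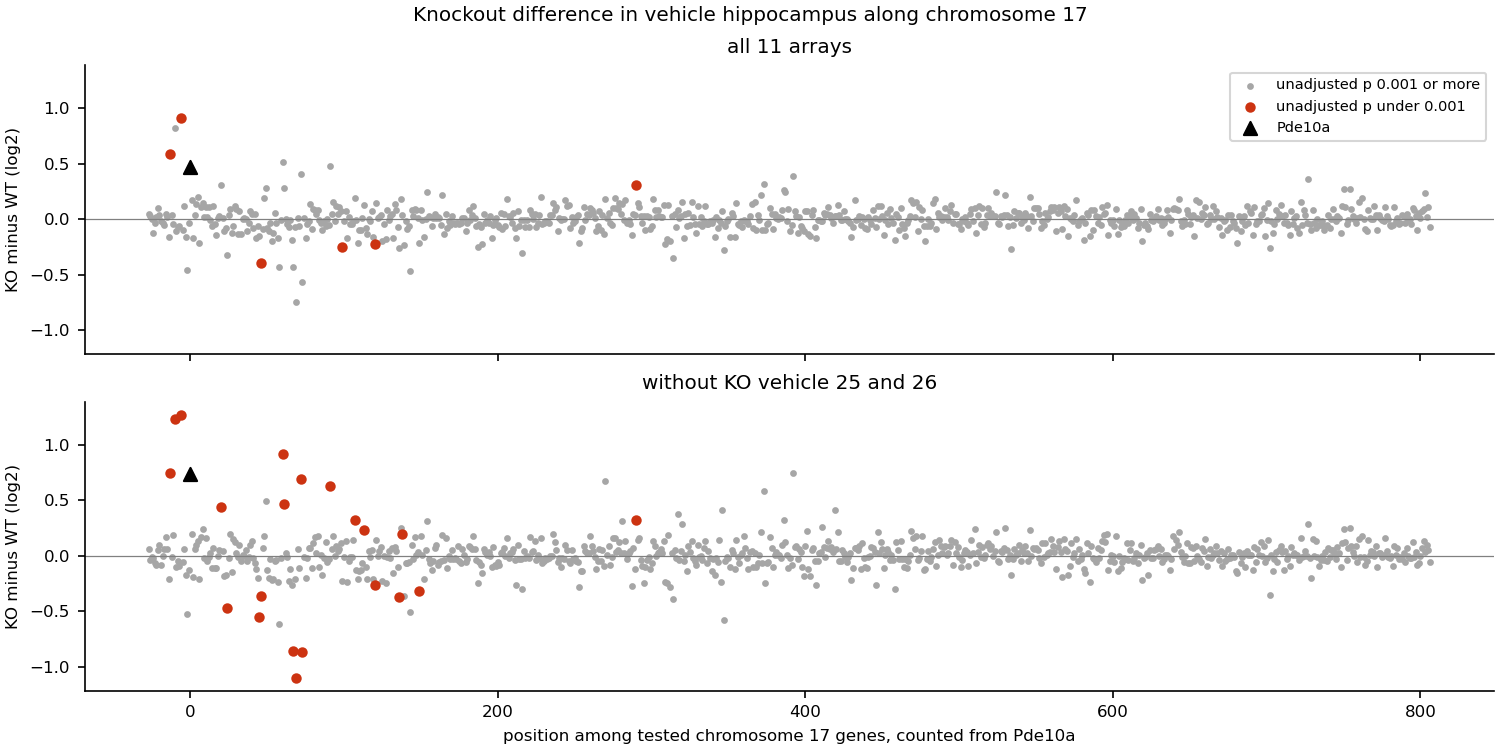
KO minus WT difference (log2) in vehicle hippocampus for the 834 tested genes of chromosome 17, in gene order counted from Pde10a, over all 11 arrays (top) and without KO vehicle 25 and 26 (bottom), with genes of unadjusted p under 0.001 in red and Pde10a as a triangle. There are 6 red points in the top panel and 21 in the bottom one, and all but Sik1 lie from 13 genes before to 149 genes after Pde10a.

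With KO 25 and 26 and WT inhibitor 12 and 14 left out, 15 genes passed (0.0824%), 8 higher (0.044%) and 7 lower (0.0385%) in KO, and 725 had an unadjusted p under 0.05 (3.99%). The 15 were singled out after their values were seen. All but P4ha2, a collagen prolyl hydroxylase gene of chromosome 11, lay on chromosome 17, from 13 genes before to 149 genes after Pde10a, a stretch of 163 tested genes or 19.5% of that chromosome's. Leaving arrays out by their chromosome 17 genes favours genes of that kind, so these 15 describe how the arrays sort and are not independent support for an effect of the label. The vehicle difference without those arrays was -1.10 ± 0.09 (SE, adjusted p = 5.06e-06 in limma) for Zfp758, 1.27 ± 0.14 (adjusted p = 3.83e-04) for Ccr6 and 1.23 ± 0.18 (adjusted p = 0.00663) for Fndc1, which codes for a fibronectin domain protein.

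The stretch holds 23 tested Zfp genes, which code for zinc finger proteins, and 5 of them are among the 15. Without KO 25 and 26, 13 of the 23 had an unadjusted p under 0.05, where 4.13% of all genes did, and 8 differed by less than 0.1 in either direction. Zfp758 read 7.08 to 7.55 (median 7.29) on the WT arrays, 7.11 and 7.02 on KO 25 and 26, and 6.09, 6.27 and 6.21 on KO 28, 29 and 30. Zfp40 read 7.56 to 7.87 (median 7.74), then 7.63 and 7.60, and then 6.78, 6.83 and 6.99. Zfp994 read 6.45 to 6.93 (median 6.71), then 6.98 and 6.83, and then 5.88, 5.84 and 5.82. For Zfp40 both of the first KO arrays were inside the WT range, for Zfp758 and Zfp994 1 of them was, and the other 3 KO arrays lay below it for all 3 genes. Zfp983 ran the other way, at 5.62 to 6.10 (median 5.88) on WT, 5.70 and 5.90 on KO 25 and 26, and 6.67, 6.94 and 6.79 on the rest, and its 2 other probe sets were higher as well (0.84 and 0.66 over all KO arrays). The probe sets of Zfp945 disagreed, at 0.41, -1.62 and 0.03 over all KO arrays, so the direction of that gene rests on its probe set of highest mean. With Zfp945 left out, 14 genes remained, 7 of them higher in KO.

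Other members set KO 28, 29 and 30 apart from the WT arrays at smaller size, while KO 25 and 26 sorted less cleanly. Abca3, a phospholipid transporter, read 9.12 to 9.20 (median 9.16) on the WT arrays, 9.27 and 9.02 on KO 25 and 26, and 9.44, 9.52 and 9.49 on the others. Clcn7, the chloride and proton exchanger of lysosomes, read 8.07 to 8.24 (median 8.13), then 8.14 and 8.02, and then 7.82, 7.82 and 7.81. Fahd1, a mitochondrial enzyme gene, read 7.31 to 7.54 (median 7.43), then 7.47 and 7.17, and then 7.06, 7.06 and 7.08. In each of these genes KO 28, 29 and 30 lay outside the WT range on the same side. Both KO 25 and KO 26 were outside the WT range for Abca3, on opposite sides, and KO 26 was below it for Clcn7 and Fahd1. P4ha2 read 6.67 to 6.87 (median 6.84) on WT, 6.92 and 6.80 on KO 25 and 26, and 7.13, 7.21 and 7.19 on the others. Tcte2 and Prss41, a serine protease gene, completed the 15 with Tmem181a and Tsc2. The dimmer probe sets of Fndc1 and Tcte2 differed by -0.01 and -0.02, so those calls rest on a single probe set. Tmem181a, Ccr6 and Tsc2 have only 1 probe set. Over all KO arrays the other sets of Clcn7 differed by -0.07 and -0.09, against -0.21 for the set used. Those of Abca3 differed by 0.11 and 0.02, against 0.19.

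Each array was placed for each of the 15 genes on a scale from 0, the WT vehicle median, to 1, the median of KO vehicle 28, 29 and 30. KO 25 lay nearer the WT median for 13 of 15 genes (median position 0.17) and KO 26 for 12 of 15 (median 0.25). Neither array was used to choose the genes, but both had been doubted from genes of the same chromosome, so their positions are a description. The WT vehicle arrays had median positions of -0.12 to 0.03. The inhibitor arrays share the estimate of spread, and the 15 genes passed only when WT inhibitor 12 and 14 were dropped from it. For Zfp758 the difference was -1.10 without KO 25 and 26, with an SE of 0.28, and the SE was 0.09 once WT inhibitor 12 and 14 were dropped too. The choice of genes therefore favours those on which these WT arrays stand apart, and their positions are no independent measurement. All 5 inhibitor-treated KO arrays had medians of 0.89 to 1.02. WT inhibitor 12 and 14 had medians of 0.90 and 0.94, and the other WT inhibitor arrays 0.12 to 0.37.

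**Figure D4:**
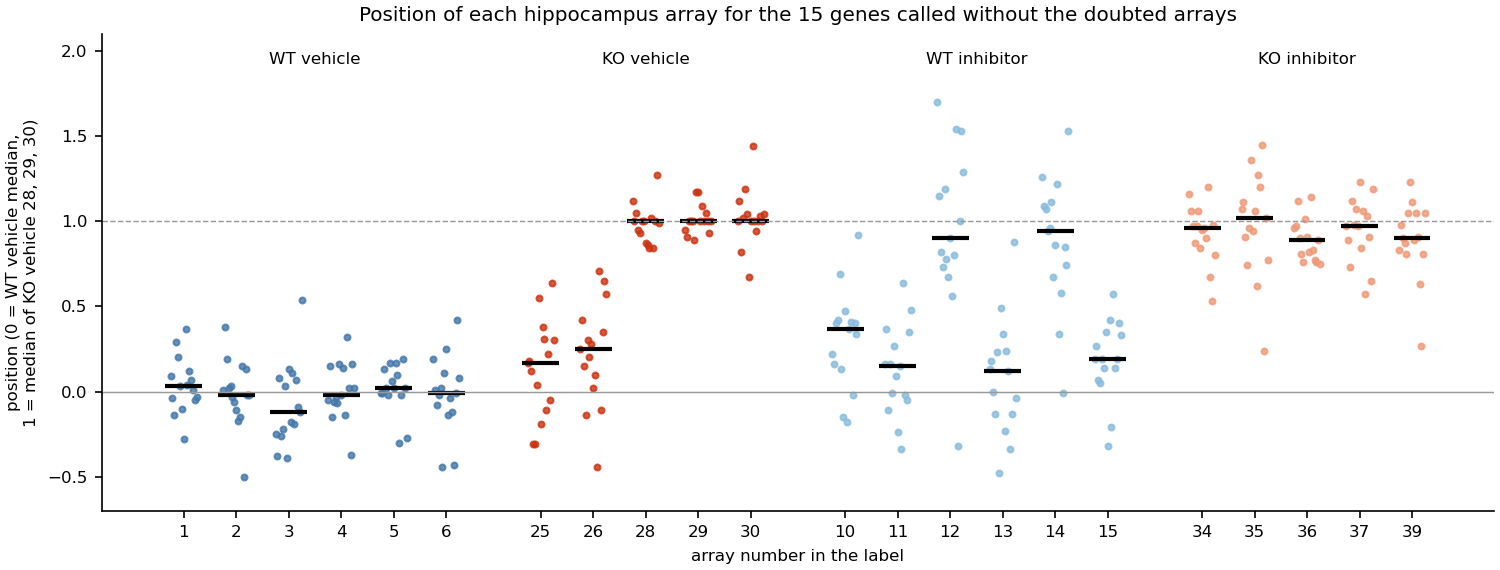
Position of each hippocampus array (array number on the x axis) for the 15 genes called without the doubted arrays, where 0 is the WT vehicle median and 1 the median of KO vehicle 28, 29 and 30, with 1 point a gene and the median of the 15 as a line. KO vehicle 25 and 26 (medians 0.17 and 0.25) lie by the WT vehicle arrays, and WT inhibitor 12 and 14 (0.90 and 0.94) lie by the KO inhibitor arrays.

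Several genes in the same stretch departed from this sorting. Among them the neighbours Lix1 and Riok2 were singled out after their values were seen. Lix1, above, put KO 25 and 26 with the other KO arrays. So did Kctd5, at 7.55 and 7.53 on KO 25 and 26, 7.50 to 7.65 on the other KO arrays and 7.62 to 7.99 on the WT arrays. For Tmem181a and Tsc2, above, KO 25 and 26 also lay on the KO side of all WT arrays. Riok2, the kinase gene beside Lix1, read 7.42 to 7.68 (median 7.59) on the WT arrays, 8.05 and 7.95 on KO 25 and 26, and 7.01, 7.01 and 7.03 on KO 28, 29 and 30. KO 25 and 26 were thus above every WT array for Riok2 and the other KO arrays below every one, which left a difference of -0.15 ± 0.17 (adjusted p = 0.92 in limma) over all.

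All 15 genes had the same sign in the inhibitor-treated hippocampus arrays, 9 of them with an unadjusted p under 0.05. Over all genes, with the vehicle difference likewise taken without the doubted arrays, 54.1% had the same sign and 9.57% the same sign with an unadjusted p under 0.05. With Zfp945 left out the counts were 14 of 14 and 9. With WT inhibitor 12 and 14 left out, 10 genes passed in that comparison (0.055%), all 10 on chromosome 17, and 8 of them are among the 15, which passed in the same fit with a shared estimate of spread. Zfp758 was at -0.88 ± 0.08 (adjusted p = 6.52e-05 in limma), Fndc1 at 1.25 ± 0.17 and Prr18, which is not among the 15, at -0.91 ± 0.14. In vehicle striatum, which shares no array, all 15 again had the same sign, 11 with an unadjusted p under 0.05. The vehicle striatum arrays carry numbers of the vehicle hippocampus arrays, so they may come from the same mice and may not be independent samples. KO striatum 25, a doubted array, was kept in this comparison. Over all genes 54.5% had the same sign, 3.94% had it with an unadjusted p under 0.05, and 5.94% had such a p at either sign. With Zfp945 left out the counts were 14 of 14 and 10. Zfp40 was at -0.76 ± 0.11 (adjusted p = 0.00451) there.

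Promoters of 3 genes of this comparison are shown because CREB, which cAMP activates, binds DNA at the cAMP response element. The windows come from RefSeq promoters of build GRCm38.p6, from 250 bases before to 50 after a start, and are printed 5' to 3' on the gene's strand. Pde10a is the targeted gene, Ccr6 had the largest difference among the 15, and Npas4 is an early response gene described next. Capitals mark TGACG or CGTCA, the core of the cAMP response element read on either strand.
Pde10a, chr17:8801495-8801794, plus strand: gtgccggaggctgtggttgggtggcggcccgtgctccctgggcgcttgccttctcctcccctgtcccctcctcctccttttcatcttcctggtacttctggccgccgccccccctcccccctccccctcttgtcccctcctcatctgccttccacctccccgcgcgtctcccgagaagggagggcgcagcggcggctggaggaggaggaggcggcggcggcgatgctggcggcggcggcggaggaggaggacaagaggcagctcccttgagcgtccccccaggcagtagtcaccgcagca
Ccr6, chr17:8242276-8242575, plus strand: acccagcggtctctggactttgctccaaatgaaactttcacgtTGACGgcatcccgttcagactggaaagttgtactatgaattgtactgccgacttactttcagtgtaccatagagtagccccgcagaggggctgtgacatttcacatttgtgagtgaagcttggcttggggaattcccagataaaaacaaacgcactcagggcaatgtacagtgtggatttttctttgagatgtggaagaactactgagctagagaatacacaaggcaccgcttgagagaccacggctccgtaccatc
Npas4, chr19:4989922-4990221, minus strand: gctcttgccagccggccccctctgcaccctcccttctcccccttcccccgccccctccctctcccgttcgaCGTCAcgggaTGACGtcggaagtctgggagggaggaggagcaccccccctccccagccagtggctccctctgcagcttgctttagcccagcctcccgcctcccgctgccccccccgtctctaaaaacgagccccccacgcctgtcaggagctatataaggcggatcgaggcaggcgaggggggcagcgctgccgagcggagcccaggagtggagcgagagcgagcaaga
The Pde10a window holds no such match, the Ccr6 window, at the second of its listed starts, holds 1 where that of the first start holds none, and the Npas4 window holds 2. Over 32851 windows of 300 bases, TGACG or CGTCA was found in 20.8% and the full TGACGTCA, which contains both, in 1.79%. Of the 17 windows of 14 of the 15 genes, 4 held the shorter match and 0 the full one. Of 34 windows of 22 early response genes, 19 held the shorter match (55.9%) and 2 the full one. A match is a string in these windows and not a shown binding site.

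Of 30 early response genes, 0 passed, 6 had a higher KO mean and 24 a lower one, with a median difference of -0.06, where 52% of all genes had a higher KO mean. At an unadjusted p under 0.05, 1 was higher (Sik1, above) and 3 were lower, where 3.55% of all genes were higher and 3.07% lower. Npas4, an activity-dependent transcription factor of neurons, read 6.06 to 6.61 (median 6.36) on the WT arrays and 5.93, 5.98, 5.49, 5.81 and 5.57 on the KO arrays. All KO arrays lay below all WT arrays, by -0.59 ± 0.23 (SE, adjusted p = 0.661 in limma). In the inhibitor arrays Npas4 differed by 0.22 ± 0.23, and single arrays there ran from 5.52 to 7.14. Without WT 1 and 3 and KO 26, a setting added after the values were seen, 11 of the 30 had a higher KO mean and the median was again -0.06. In the inhibitor arrays 19 of the 30 had a higher KO mean, with a median of 0.06, the opposite side.

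The second messenger genes had small median differences as groups. Of 17 phosphodiesterases other than Pde10a, 0 passed, 6 had a higher and 11 a lower KO mean, and the median difference was -0.04. Pde1a, which calmodulin activates, read 9.40 to 10.16 (median 9.69) on the WT arrays and 10.05, 10.24, 10.16, 9.85 and 9.86 on the KO arrays (0.30 ± 0.13, adjusted p = 0.725 in limma). Pde8a, which is specific for cAMP, read 8.04 to 8.46 (median 8.32) and then 7.98, 7.56, 8.21, 8.06 and 8.21 (-0.28 ± 0.12, adjusted p = 0.725). The groups overlapped for both. Of 28 genes of adenylate and guanylate cyclases, G proteins and protein kinases A and G, 0 passed, 13 had a higher and 15 a lower KO mean, and the median was 0.00. At an unadjusted p under 0.05, 4 of the 28 were higher and 1 lower, where 3.55% of all genes were higher and 3.07% lower. Prkar2a, a regulatory subunit of protein kinase A, differed by 0.13 ± 0.06, and Ppp1r1a, which codes for phosphatase inhibitor 1, a target of that kinase, by -0.24 ± 0.09.

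Neuropeptide genes had a higher KO mean for 13 of 19 (median 0.06, 0 passed), and 4 were higher at an unadjusted p under 0.05, as 3.55% of all genes were. Tac1 read 7.93 to 8.50 (median 8.20) on the WT arrays and 8.51, 9.26, 8.36, 9.05 and 8.30 on the KO arrays, a difference of 0.50 ± 0.16 (adjusted p = 0.612 in limma). KO 28 and KO 30 lay inside the WT range, and KO 26 and KO 29 were highest. The mean of 16 striatal projection neuron markers, a list that holds Tac1, was highest on KO 29 (7.81, against 7.38 to 7.61 on the WT arrays). On KO 26 that mean was 7.51, inside the WT range. The dimmer second probe set of Tac1 differed by -0.03. Cartpt, the CART peptide gene, differed by 0.34 ± 0.13, and Sst, the somatostatin gene of a class of interneurons, by 0.23 ± 0.09. In the inhibitor arrays Tac1 differed by 0.43 ± 0.16 and Sst by 0.20 ± 0.09.

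Markers of the hippocampal neuron classes varied more between arrays than between groups, and in bulk tissue fewer cells of a type and less RNA per cell cannot be told apart. The mean over 15 dentate gyrus markers ran from 8.09 to 8.64 in the WT and from 7.85 to 8.59 in the KO arrays, with WT 1 and KO 30 highest. That over 12 CA2 and CA3 markers ran from 8.56 to 9.12 and from 8.49 to 9.03, again with WT 1 and KO 30 highest. That over 9 CA1 markers ran from 9.09 to 9.54 and from 9.40 to 9.66. The KO mean was higher for 4 of 15 dentate (median -0.12), 2 of 12 CA2 and CA3 (-0.12) and 6 of 9 CA1 markers (0.09), and for 7, 6 and 6 of them without WT 1 and 3 and KO 26. In the inhibitor arrays it was higher for 13, 10 and 8 of them, with medians of 0.17, 0.13 and 0.11. No member of the 3 lists passed. Cpne7, a copine gene on the CA2 and CA3 list, read 9.14 to 9.95 (median 9.45) on the WT arrays and 9.87, 10.47, 9.91, 9.55 and 9.91 on the KO arrays (0.46 ± 0.18), where only KO 26 left the WT range. Dcn, the decorin gene, a fibroblast gene that also marks CA1 and is on both lists, read 7.81 to 9.08 (median 8.77) on the WT arrays and 9.34, 10.50, 9.42, 9.09 and 9.10 on the KO arrays. The groups did not overlap, KO 26 stood far above the rest, and the difference was 0.90 ± 0.25 (adjusted p = 0.612 in limma). The dimmer probe set of Dcn differed by 0.14. The mean over 12 meningeal and fibroblast markers ran from 6.94 to 7.72 in WT and from 7.01 to 7.72 in KO, where KO 26 was highest, and its part in the Dcn difference was not tested.

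Ion channel and receptor lists were even. Glutamate receptor genes had a higher KO mean for 11 of 20 (median 0.02), GABA receptor genes for 5 of 10 (0.00) and voltage-gated channel genes for 18 of 29 (0.01), with 0 passing. The kainate receptor genes Grik1 and Grik2 differed in opposite directions. Grik1 read 5.97 to 6.52 (median 6.39) on the WT arrays and 6.90, 6.73, 6.54, 6.65 and 6.54 on the KO arrays, all above WT (0.34 ± 0.12, adjusted p = 0.616 in limma). Grik2 read 6.97 to 7.61 (median 7.29) and then 7.01, 7.06, 6.98, 7.04 and 7.02, inside the lower part of the WT range (-0.29 ± 0.10, adjusted p = 0.627).

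Among glial lists, the 11 microglia markers all had a lower KO mean (median -0.12), 3 of them with an unadjusted p under 0.05, as 3.07% of all genes were on the lower side, and 0 passed. Cd68, a lysosomal protein of phagocytes, read 6.60 to 7.06 (median 6.79) on the WT arrays and 6.59, 6.34, 6.69, 6.50 and 6.59 on the KO arrays (-0.27 ± 0.10, adjusted p = 0.636 in limma), and P2ry12 is given above. The list's mean was 8.74 on WT 1 and 8.09 on KO 26, the extremes of the 11 arrays, and between 8.28 and 8.44 on the rest. Without KO 25 and 26, 1 of the 11 had a higher KO mean and the median was -0.11. Leaving out WT 1 and 3 and KO 26, a setting added after the values were seen, drops both of those extremes. It gave 5 of 11 with a higher KO mean and a median of 0.00. In the inhibitor arrays 7 of 11 were higher in KO (median 0.13). Oligodendrocyte markers had a higher KO mean for 2 of 15 (median -0.14), for 7 without WT 1 and 3 and KO 26 (median -0.04), for 8 without KO 25 and 26 (median 0.01) and for 0 in the inhibitor arrays (median -0.17). Their mean was lowest on KO 26, at 9.36. Ermn, a cytoskeletal protein of myelinating cells, differed by -0.30 ± 0.14, and by -0.09 without KO 25 and 26. Astrocyte markers had a higher KO mean for 4 of 11 (median 0.00). The count was 0 without KO 25 and 26 (median -0.03) and 7 without WT 1 and 3 and KO 26 (median 0.02). Aldh1l1, a folate enzyme of astrocytes, differed by -0.25 ± 0.10. All 8 ependymal markers had a higher KO mean (median 0.14), with 0 at an unadjusted p under 0.05. Vascular markers had a higher KO mean for 7 of 12 (median 0.02), with Rgs5, of pericytes, at 0.14 ± 0.05, and blood cell markers for 4 of 5 (0.03). Interneuron markers were higher for 9 of 15 (0.02), thalamic markers for 4 of 10 (-0.01) and antigen presentation genes for 2 of 12 (-0.03), with 0 passing.

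Heat shock and endoplasmic reticulum chaperones had a higher KO mean for 19 of 19 genes, with a median difference of 0.09, and 0 passed. The same 19 of 19 held without KO 25 and 26 (median 0.11, against 54.8% of all genes) and without WT 1 and 3 and KO 26 (median 0.11, against 53.5%), and 17 of 19 were higher in KO in the inhibitor arrays (median 0.11, against 56%). Chaperone genes are controlled together, so they are not independent of each other. Hspa4, a chaperone of the HSP110 family, read 9.81 to 9.94 (median 9.91) on the WT arrays and 10.14, 10.09, 9.97, 10.05 and 10.11 on the KO arrays (0.18 ± 0.05, adjusted p = 0.565 in limma), with no overlap. Hsp90aa1, the inducible HSP90, read 12.58 to 12.75 (median 12.67) and then 12.88, 12.99, 12.70, 12.87 and 12.70 (0.16 ± 0.05, adjusted p = 0.612), with KO 28 and 30 inside the WT range. The list's mean over arrays still overlapped, at 9.91 to 10.10 in WT and 9.94 to 10.20 in KO, with WT 1 and KO 29 highest.

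Cholesterol synthesis genes had a higher KO mean for 2 of 16 (median -0.05) and, without KO 25 and 26, for 5 of 16 (median again -0.05). Without WT 1 and 3 and KO 26, a setting added after the values were seen, the KO mean was higher for 8 of 16 (median -0.01). Over all arrays 3 of the 16 were lower at an unadjusted p under 0.05, as 3.07% of all genes were. Mvd, an enzyme of the mevalonate path, differed by -0.17 ± 0.08 beside Sc5d. In the inhibitor arrays 13 of the 16 were higher in KO (median 0.11). Oxidative phosphorylation genes had a higher KO mean for 21 of 45 (median 0.00), for 36 without KO 25 and 26 (0.02), for 30 without WT 1 and 3 and KO 26 (0.01) and for 43 in the inhibitor arrays (0.06). Among them Uqcrc2, a core subunit of complex III, read 11.27 to 11.35 (median 11.30) on the WT arrays and 11.44, 11.49, 11.41, 11.44 and 11.38 on the KO arrays (0.13 ± 0.04, adjusted p = 0.612 in limma), a small gap with no overlap. Cytosolic ribosomal protein genes had a higher KO mean for 6 of 27 (median -0.02), for 13 without KO 25 and 26, for 14 without WT 1 and 3 and KO 26 and for 24 in the inhibitor arrays (median 0.03). The KO mean was higher for synaptic vesicle release genes for 8 of 23 (-0.01), glucocorticoid-responsive genes for 9 of 14 (0.04) and circadian clock genes for 6 of 17 (-0.03). Rpl12, a protein of the large ribosomal subunit, read 6.70 to 6.79 (median 6.73) on the WT arrays and 6.66, 6.56, 6.59, 6.63 and 6.58 on the KO arrays, all below WT (-0.13 ± 0.05), and differed by 0.14 ± 0.05 in the inhibitor arrays. Syn1, the synapsin I gene, differed by -0.12 ± 0.05 and Pdk4, a glucocorticoid-responsive kinase gene of pyruvate metabolism, by -0.20 ± 0.10. Sex-linked genes did not split the groups (4 of 5 higher, median 0.02). None of these lists had a member past the threshold.

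**Figure D5:**
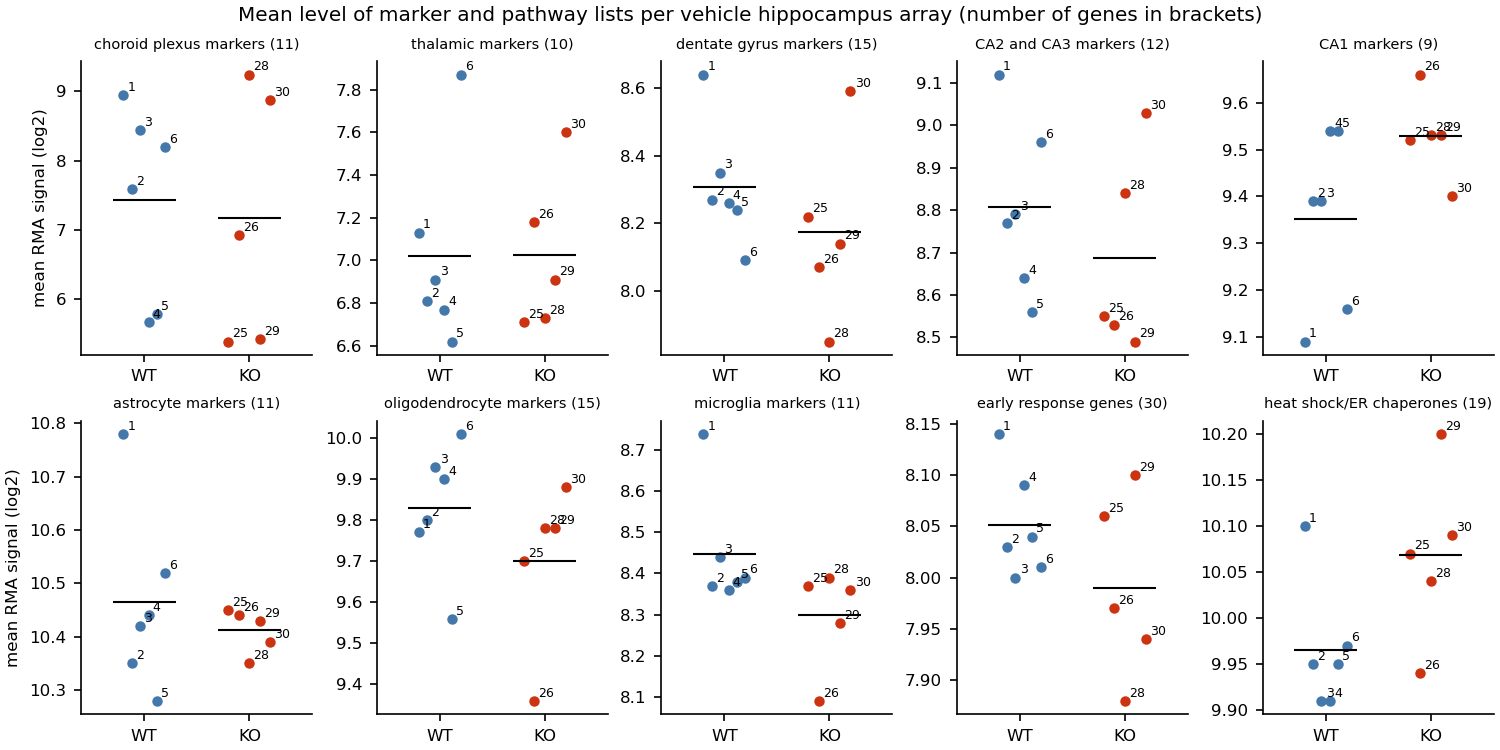
Mean log2 RMA signal over the genes of 10 lists on each vehicle hippocampus array, WT (blue) and KO (red) with array numbers beside the points and the group mean as a line, and an axis of its own for each list. The groups overlap for all 10 lists, choroid plexus signal runs from 5.39 to 9.24, and KO 26 is lowest for microglia and oligodendrocyte markers.

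The KO difference in hippocampus was set against that in vehicle striatum by a contrast of contrasts over all 42 arrays. It passed for 9 of 18193 genes (0.0495%), named here because they passed, after their values were seen. For Pdyn, the dynorphin precursor gene, the hippocampus difference was 0.06 ± 0.12 and the striatum difference 1.39 ± 0.19, so that the difference between regions was -1.32 ± 0.22 (SE, adjusted p = 0.0135 in limma). In hippocampus Pdyn read 5.63 to 6.26 (median 5.93) on the WT arrays and 6.13, 5.89, 5.89, 6.12 and 5.96 on the KO arrays, all inside the WT range. Slc7a8, an amino acid transporter gene, was at -0.01 ± 0.06 in hippocampus and 0.71 ± 0.11 in striatum. Fam43a was at 0.03 ± 0.09 and 0.88 ± 0.13, Dusp14, a dual-specificity phosphatase gene, at -0.24 ± 0.15 and 0.81 ± 0.14, and Chmp1b, of the ESCRT machinery, at 0.00 ± 0.06 and 0.58 ± 0.10. These 5 had positive differences in striatum and none of that size in hippocampus.

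The 4 others were lower in KO striatum. Ptprv was at 0.09 ± 0.08 in hippocampus and -0.80 ± 0.14 in striatum, Gask1b at 0.15 ± 0.11 and -0.79 ± 0.14, Cgref1 at 0.14 ± 0.08 and -0.46 ± 0.08, and Fst, the follistatin gene, an inhibitor of activin, at 0.30 ± 0.12 and -0.52 ± 0.10. In hippocampus Fst read 4.62 to 5.34 (median 5.08) on the WT arrays and 5.24, 5.40, 5.29, 5.43 and 5.53 on the KO arrays, which overlapped. KO striatum 25, a doubted array, was kept in the main fit. The count of 9 depended on single arrays. It was 28 without KO striatum 25, 5 without KO hippocampus 25, KO hippocampus 30, WT hippocampus 4 or WT striatum 3, 4 without KO striatum 29, 3 without WT hippocampus 2, and 2 without KO hippocampus 26, KO striatum 28 or WT striatum 4. Without WT hippocampus 1 and 3 and KO hippocampus 26 it was 0, a setting added after the values were seen.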

How the data were processed

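Gene expression was read on Affymetrix arrays, and groups came from the array titles. The authors deposited log2 RMA values for 45101 probe sets; RMA is named in the submitters' processing notes, and no source read here says whether all arrays were processed together. No read depth applies, and the number of arrays limits the precision. Control probe sets (64) were left out. By the platform annotation 34945 of the rest named a single gene, 932 several and 9160 none, and 34741 matched RefSeq (GRCm38.p6) by gene identifier, which was used for names, chromosomes and gene order. Each of 18193 genes was represented by its probe set of highest mean signal (42 arrays).

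Tests used limma 3.58.1 (R 4.3.3; lmFit and eBayes, two-sided) with Benjamini-Hochberg adjustment over 18193 genes and a threshold of 0.05. The 4 hippocampus groups shared a fit, and the contrast between regions used all 42 arrays. Tables were made with pandas 2.3.3. Errors of differences are SE, and those of means SD. Of 543 entries in 30 gene lists, 493 matched a tested gene.

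Genes were named by a rule: Pde10a and the 5 tested genes on either side, the 12 with the smallest p in each direction, genes past the threshold without KO 25 and 26 (0 genes), chromosome 17 genes of unadjusted p under 0.001, and up to 2 members a list of smallest p under 0.05, without clone or predicted names. Genes outside it are told as chosen after their values were seen. Members and lists were chosen with earlier results of these data known. On simulated data for the vehicle comparison (18193 genes) the fit recovered 88% of log2 changes of 0.5 and 97.2% of those of 1, with a mean of 10.25 false calls a run. The simulation shifted all KO arrays alike and drew independent noise. The KO arrays here were split, so these rates do not carry over to the data. Alternatives varied the arrays in the fit, array weights, probe set choice, signal filter, centring, the spread model, an RNA quality covariate and a replicate block.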

Additional observations from a re-analysis of the deposited data

Results flagged for a closer look

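Each group of a named gene was checked for an array set apart from the rest by Dixon's criterion, 174 groups in all; chance alone sets apart about 1 in 20 groups, and 10 arrays were found. On the WT side these were WT 4 for Mpc1 (10.59, next 10.76), WT 1 for Ppp1r1a (10.39, next 9.97) and WT 6 for Gpr151 (6.53, next 4.58). On the KO side KO 26 stood apart for 4 genes: Slc5a3 (9.68, next 9.59), Dcn (10.50, next 9.42), Chmp1b (7.54, next 7.72) and Gpr151 (7.64, next 4.60). KO 25 stood apart for Prr18 (9.09, next 8.72) and Fahd1 (7.47, next 7.17), in each case toward the WT level. KO 30 stood apart for Pcp2 (8.67, next 5.28).

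The KO difference differed between hippocampus and striatum, by the test of that difference in limma, for 9 genes. Hippocampus minus striatum was -1.32 for Pdyn (adjusted p = 0.0135), -0.72 for Slc7a8 (0.0135), -0.85 for Fam43a (0.0244), -0.58 for Chmp1b (0.0382) and -1.04 for Dusp14 (0.0462). It was 0.89 for Ptprv (0.0178), 0.83 for Fst (0.0285), 0.94 for Gask1b (0.0303) and 0.61 for Cgref1 (0.0303).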

How the results depend on the processing

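The vehicle hippocampus count stayed at 0 in 22 of 23 alternatives, leaving out each array in turn among them, and was 15 without all doubted arrays. The self-test made calls at this number of arrays, but only for shifts equal on all KO arrays, so it cannot explain the count of 0. The Pde10a difference lay between 0.29 and 0.57 leaving out 1 array at a time and kept its sign throughout. Over 36 named genes and 808 pairs of gene and alternative, 792 kept direction and side of the threshold, 15 newly passed (all without all doubted arrays) and 1 changed sign: Zfp945, whose probe sets disagree, was at -0.39 when they were averaged. The region count of 9 was 2 with only the groups compared, 23 with array weights, 3 with the Gapdh covariate, 34 without all doubted arrays and 0 without WT vehicle 1 and 3 and KO vehicle 26, and ran from 2 to 28 leaving out single arrays. For the region count the doubted arrays also took in KO vehicle striatum 25 and WT inhibitor striatum 13, 14 and 15. The inhibitor hippocampus count of 1 was 0 with only the groups compared, all 42 arrays, genes above the median signal, trend and robust spread, the Gapdh covariate or the replicate block. It was 658 with array weights, 7 with probe sets averaged per gene, 2 with median centring, 3 without the doubted KO vehicle arrays and 10 without all doubted arrays, and ran from 0 to 4 leaving out single arrays. The causes were not tested. The KO and WT arrays compared share no number. Arrays of 1 number in both regions formed 10 pairs. Their deviations correlated between -0.382 and 0.164, with 2 over 0.1 and 0 best with their own number. The labels do not say whether arrays of 1 number come from 1 mouse, and these correlations cannot decide it. With the replicate block the vehicle count was 0 and the region count 9. Signal near background, as for Rasef (2.95), limits what low genes can show.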
